A study of Homo sapiens with 10 samples.

Results

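The ATP-binding cassette (ABC) genes were taken from a gene count table as every entry whose symbol reads ABC, a subfamily letter from A to G and a number. That gave 47 entries of 62709 with values, and 46 symbols, since ABCC13 is listed under 2 identifiers. Total RNA of H441, an established cell line from a human lung adenocarcinoma, was sequenced in 10 libraries to compare cells labelled TET1 knockout, cells with added TET1 and unmodified cells. TET1 is a dioxygenase that oxidises 5-methylcytosine, a first step in its removal from DNA. The TET1 knockout (KO) had 3 libraries of cells in which CRISPR-Cas9 had been used against TET1 in the wild-type line, and the labels do not say whether they are 1 clone. Overexpression (OE) had 2 libraries of cells that carried a plasmid with full-length human TET1, labelled as transient. A pair of libraries titled Lipo, labelled wild type and untreated, served as the control of OE, because the title sets them apart from the others; no label explains it. Wild type (WT), the control of KO, had 3 libraries. All groups were H441 epithelial cells in the same serum-supplemented medium, with no other allele or agent in the labels.

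ABC proteins use the energy of ATP, bound at a pair of conserved nucleotide-binding domains, to move lipids, peptides, metals, drugs and their conjugates across membranes. Subfamily A mostly moves lipids, and ABCA3 loads phospholipid into the lamellar bodies in which alveolar type II cells of the lung store surfactant. Subfamilies B, C and G hold the best-known multidrug efflux pumps, D sits mainly in peroxisomes, and E and F carry no membrane domain and work at the ribosome.

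TET1 itself had 4, 0 and 8 reads in KO, against 2, 7 and 0 in WT, so at this depth its transcript did not separate the knockout from its control. It had 17883 and 20805 reads in OE, against 0 and 1 in Lipo. Reads per library totalled 20994462 to 25981097. Of 11 epithelial and lung markers, 10 reached 1 CPM, a read count scaled to the size of its library, and only SCGB1A1 was at 0 in all libraries. Their summed level was 15216 to 19302 CPM in KO and 17006 to 19040 CPM in WT, and 13048 to 13243 CPM in OE and 13671 to 13816 CPM in Lipo. The fibroblast markers DCN and PDGFRB were at 0 in all libraries, while the summed fibroblast list, mostly COL1A1, was 70.9 to 77.7 CPM in KO and 177 to 289 CPM in WT, and 343 to 351 CPM in OE and 170 to 183 CPM in Lipo. LUM, of the same list, had 10.6 CPM in KO and 17.5 CPM in WT, and 39.3 CPM in OE and 21.4 CPM in Lipo on average. Of other lists, 3 of 5 endothelial markers reached 1 CPM, KDR the highest, with 2 of 6 leukocyte markers. So did 1 of 5 hepatocyte markers, SERPINA1. The part of these markers in the results below was not tested. Replicates differed in every group by more than counting noise. WT 1 stood further from WT 2 and WT 3 (chi-square per degree of freedom 38.6 and 42.0) than those stood from each other (6.01), the KO libraries gave 36.1 to 58.9, and the OE and Lipo pairs gave 4.81 and 5.88.

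Promoter sequence is shown for 3 members on which the results turn: ABCC9, whose RNA was lower in KO and higher in OE, ABCA1, which was higher in OE, and ABCA3, which was lower in OE. Each line gives the gene's own strand from 250 bases before to 50 bases after the RefSeq start, 5′ to 3′ (GRCh38.p14). Capitals mark CpG dinucleotides, the sites at which DNA methylation is mostly placed and on which TET enzymes act. All 3 genes lie on the minus strand. The windows are chr12:21941377-21941676 for ABCC9, chr9:104928106-104928405 for ABCA1 and chr16:2340679-2340978 for ABCA3.
ABCC9: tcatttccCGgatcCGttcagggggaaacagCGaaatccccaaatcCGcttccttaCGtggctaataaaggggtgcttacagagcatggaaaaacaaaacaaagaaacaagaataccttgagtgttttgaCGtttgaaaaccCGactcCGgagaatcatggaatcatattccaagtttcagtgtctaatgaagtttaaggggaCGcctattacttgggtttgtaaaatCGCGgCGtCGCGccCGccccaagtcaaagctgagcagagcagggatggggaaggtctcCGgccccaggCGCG
ABCA1: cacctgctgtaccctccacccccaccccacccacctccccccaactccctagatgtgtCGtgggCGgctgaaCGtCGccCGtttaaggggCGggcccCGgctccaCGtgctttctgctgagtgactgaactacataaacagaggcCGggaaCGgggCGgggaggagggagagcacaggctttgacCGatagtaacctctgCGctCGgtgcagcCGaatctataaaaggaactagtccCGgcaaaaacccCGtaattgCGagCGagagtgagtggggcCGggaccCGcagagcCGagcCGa
ABCA3: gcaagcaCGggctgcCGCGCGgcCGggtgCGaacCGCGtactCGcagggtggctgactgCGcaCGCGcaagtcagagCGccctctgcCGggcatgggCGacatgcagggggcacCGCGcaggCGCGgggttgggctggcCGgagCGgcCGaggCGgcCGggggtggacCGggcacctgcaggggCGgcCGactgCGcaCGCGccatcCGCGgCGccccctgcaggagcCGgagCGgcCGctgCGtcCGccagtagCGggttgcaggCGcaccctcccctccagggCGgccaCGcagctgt

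These windows held 18, 23 and 42 CpGs, in the order printed. For ABCC9 the RefSeq start lies 1103 bases inside the GENCODE gene, so its window is not the promoter of the longest transcript. DNA methylation was not measured in the counts used here. The ABCA1 window held the E-box letters CACGTG 147 bases before the start on the gene's strand, a motif present in 7.43% of all 27305 RefSeq promoters and in 4 of 35 member promoters (also ABCA9, ABCB6 and ABCF1). It was also the only member window with AGGTNA and NGGTCA at 4 bases from each other, a spaced direct repeat of the kind that liver X receptors are known to bind, found on the opposite strand 69 bases before the start and in 0.103% of all promoters. The core of the interferon-stimulated response element, GAAA and GAAA with 2 bases between, occurred in the windows of ABCA9 and ABCC2, against 3.65% of all. Both strands were searched, the motifs did not share letters, and a match describes the sequence only.

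RefSeq promoter windows were found for 35 members, and 29 of these started within 300 bases of the GENCODE start. A member was called on when its mean level reached 1 CPM in any group. The 22 members on with a window had a median of 24 CpGs, and 68.2% of them had an observed to expected CpG ratio over 0.6. The 13 members off had a median of 5 CpGs and 30.8% over that ratio, and all promoters had a median of 14 and 48.9%. The exceptions ran both ways. ABCG4 and ABCC6 were off with 26 and 25 CpGs, while ABCG2, ABCA13 and ABCB11 were on with 3 each and ABCC2 with 1. The RefSeq start of ABCG2 lies more than 300 bases upstream of its GENCODE start, so its window may not be the promoter used here. ABCF1, with 37 CpGs, was counted among the members off, but its 2 reads are not read as lack of expression, for the reason given with its levels.

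**Figure D1:**
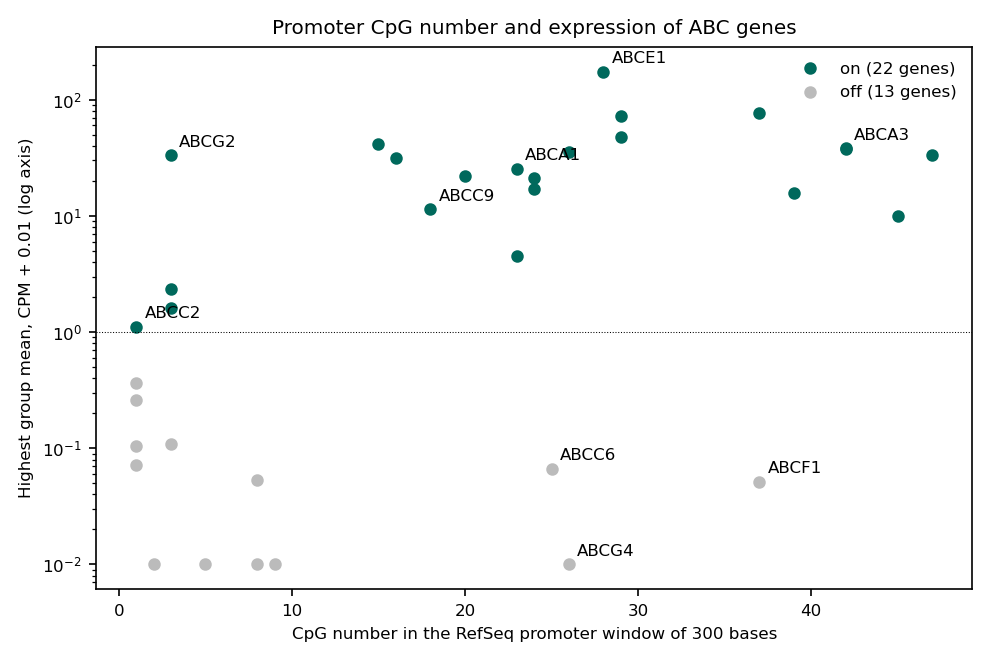
Highest group mean of each gene in CPM plus 0.01 (vertical log axis) against the number of CpG dinucleotides in its promoter window of 300 bases (horizontal axis), with members on in green, members off in grey and the 1 CPM line dotted. Members on had a median of 24 CpGs and members off a median of 5, and ABCG4 with 26 CpGs stands among the members off. ABCF1, with 37 CpGs, is drawn as off from 2 reads that are not read as lack of expression.

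In all, 27 of the 47 entries were on in at least 1 group. Counted by group, 23 were on in KO and 27 in WT, and 25 in OE and 26 in Lipo. By subfamily, 7 of 12 were on in A, 6 of 9 in B, 7 of 13 in C, 3 of 4 in D, the single member of E, 2 of 3 in F and 1 of 5 in G. The members nearest above the line were ABCC2, an apical pump for conjugated bilirubin, with a highest group mean of 1.10 CPM in WT, ABCB11, the bile salt export pump of hepatocytes, with 1.60 CPM in Lipo, and ABCA13 with 2.32 CPM in OE. The nearest below were ABCC11 with 0.354 CPM in KO and ABCA12, the keratinocyte lipid transporter, with 0.248 CPM in WT. A further 8 of those off had from 2 to 12 reads over all libraries, among them ABCB1, the P-glycoprotein drug pump, with 10. The remaining 10 entries, ABCA6, ABCA8, ABCB5, ABCC8, ABCC12, both ABCC13 entries, ABCG4, ABCG5 and ABCG8, had no read in any library, which allows up to 0.115 to 0.148 CPM each in a library by counting error alone. These limits do not cover any other error.

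ABCF1, which acts in translation initiation, had 2 reads over all libraries. Of the 17 other protein-coding genes within 250000 bases of it, 12 (70.6%) had fewer than 10 reads in all and 9 had none, against 31.4% of all 19854 protein-coding genes. Its low value is therefore given as listed, and is not read as lack of expression. Reads of ABCC11 cannot be told from those of LONP2 on the opposite strand (22132 reads in all), because the sources used here do not give the strand setting of the counting.

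Levels of different genes were compared per kilobase of exon (CPM per kb). ABCE1, which splits ribosomes after termination so that they can be used again, had the highest mean of the family in all 4 groups: 27.8 ± 4.82 in KO and 26.4 ± 3.12 in WT (SD, n = 3 each), and 23.3 ± 0.515 in OE and 25.3 ± 0.125 in Lipo (SD, n = 2 each). ABCE1 also overlaps OTUD4 on the opposite strand, so part of its reads may be shared. ABCC3, a basolateral exporter of glucuronide and bile salt conjugates, followed in KO with 14.7 ± 1.64 CPM per kb and in WT with 24.2 ± 6.20 CPM per kb, where its spread overlapped that of ABCE1. Its rank was 4 in OE with 10.5 ± 0.189 CPM per kb and 2 in Lipo with 17.3 ± 1.51 CPM per kb.

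The other leaders work outside the plasma membrane. ABCF3, a cytosolic family member without a membrane domain, had 11.4 ± 1.13 CPM per kb in KO and 13.2 ± 1.28 in WT, and 14.8 ± 0.546 in OE and 12.7 ± 1.08 in Lipo. ABCF2, of the same subfamily, had 9.21 ± 1.78 CPM per kb in KO and 9.51 ± 0.521 in WT, and 17.4 ± 0.455 in OE and 13.4 ± 0.0301 in Lipo. ABCF2 and ABCF3 lay within their spread of each other in Lipo.

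**Figure D2:**
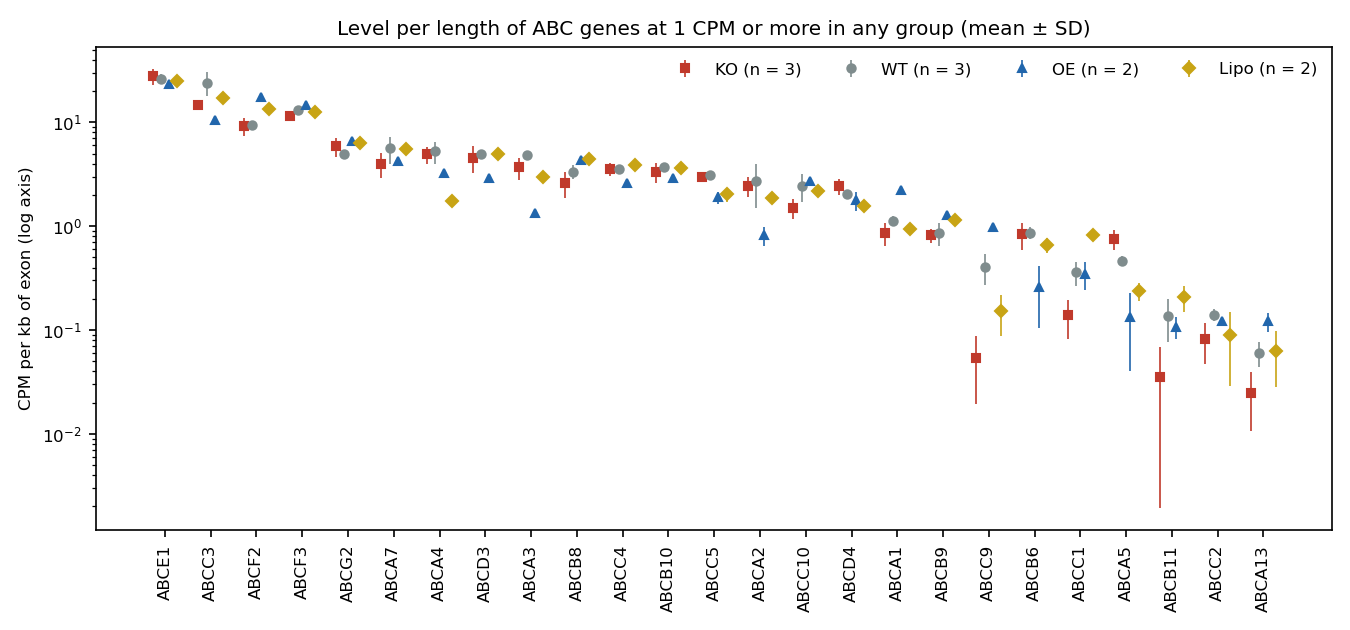
Level of 25 members that were on, in CPM per kilobase of exon on a log axis, as mean ± SD for KO and WT (n = 3 each) and OE and Lipo (n = 2 each). ABCE1 had the highest mean in all 4 groups, at 23.3 to 27.8 CPM per kb.

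KO was compared with WT to ask which transporters differed in the libraries labelled TET1 knockout, whose TET1 reads were as few as in WT. No member rose and 4 fell, ABCC9, ABCC3, ABCC1 and ABCC10, all of subfamily C, in which 8 members were tested. That is 14.3% of the 28 members tested, beside 12.6% of all 15832 genes tested called in either direction, 5.13% called higher and 7.45% called lower. In either direction the share is near the background. All 4 calls were lower, so the share called lower is 14.3% beside 7.45%, a difference that was not tested. At an unadjusted p under 0.05 in edgeR, 1 member was higher and 8 were lower. All genes were not counted at that threshold, so these numbers are not read as a trait of the family. DESeq2 called none higher and 5 lower of 37 members it tested, beside 2337 of 28074 genes called. The 28 members had a median log2 fold change of -0.16, with 22 below 0 and 6 above, against a median of 0.0034 over all genes tested. Groups did not overlap for 6 of the 28, beside 27.6% of all genes. Calls here and below are adjusted p under 0.05 in edgeR's quasi-likelihood test, two-sided, adjusted by the Benjamini-Hochberg method over all genes tested. The labels do not say that replicates were separate cultures, so p-values measure the spread between these libraries, which may be technical. In bulk RNA, fewer cells with a transcript and less of it per cell cannot be told apart.

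ABCC9 (ENSG00000069431, chr12:21797401-21942529, minus strand, GRCh38) encodes SUR2, the sulphonylurea receptor that forms ATP-sensitive potassium channels with a Kir6 pore. It had 0.926, 0.781 and 0.173 CPM in KO, against 6.49, 4.12 and 3.55 CPM in WT. Every KO library lay below every WT library. ABCC9 fell 7.45-fold (log2 fold change -2.90, SE 0.42, edgeR adjusted p = 3.46e-04). These levels rest on 21, 20 and 4 reads in KO and 150, 108 and 81 reads in WT, and an antisense gene, AC008250.1, had 53 reads over all libraries. The call held in all 20 alternatives, with log2 fold changes from -3.26 to -2.46.

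ABCC3 (ENSG00000108846, chr17:50634777-50692252, plus strand), the conjugate exporter, had 127, 138 and 158 CPM in KO, against 167, 248 and 283 CPM in WT. The groups did not overlap, although WT 1 lay close to KO 3. ABCC3 fell 1.65-fold (log2 fold change -0.72, SE 0.16, edgeR adjusted p = 0.00899). Without WT 3 the adjusted p was 0.0555, and against WT and Lipo together it was 0.0636.

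ABCC1 (ENSG00000103222, chr16:15949577-16143074, plus strand), the multidrug resistance protein MRP1 that exports glutathione conjugates, had 0.618, 1.05 and 1.47 CPM in KO, against 3.51, 2.52 and 2.15 CPM in WT. All 3 KO libraries were below the WT libraries. ABCC1 fell 2.59-fold (log2 fold change -1.37, SE 0.34, edgeR adjusted p = 0.0163). These levels rest on 14, 27 and 34 reads in KO and 81, 66 and 49 reads in WT. Without WT 1 and KO 1 together, an alternative chosen after seeing the data, its log2 fold change was -0.90 and its adjusted p 0.102. Against WT and Lipo together its log2 fold change was -1.96.

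ABCC10 (ENSG00000124574, chr6:43427366-43450430, plus strand), a drug exporter also called MRP7, had 9.18, 13.4 and 13.8 CPM in KO, against 13.5, 20.7 and 24.9 CPM in WT. WT 1 fell among the KO libraries, so the groups overlapped. Its log2 fold change was -0.70 (SE 0.22, edgeR adjusted p = 0.0489), a call lost in 13 of 20 alternatives, with adjusted p up to 0.223 without WT 3. Leaving out KO 1, KO 2, KO 3, WT 2, WT 3 or any OE or Lipo library ended it.

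Among members not called in KO, ABCB11 had 0.221, 0.547 and 0.0433 CPM, against 0.519, 1.34 and 1.31 CPM in WT, where KO 2 lay above WT 1 (log2 fold change -1.92, edgeR adjusted p = 0.0673). ABCB11 was called lower with DESeq2 (adjusted p = 0.0393), without a filter on low counts (0.0205), against WT and Lipo together (0.0322), without KO 2 (0.0247), without WT 1 (0.0355) and with the replicate number as a block (0.0320 in all 10 libraries, 0.0196 in KO and WT alone). ABCA5, a lysosomal family member, had 11.9, 10.5 and 7.45 CPM in KO, against 6.71, 5.31 and 6.35 CPM in WT. All KO libraries of ABCA5 were above all WT libraries, with a log2 fold change of 0.70 and an edgeR adjusted p of 0.132, and it was called higher with the replicate number as a block in KO and WT alone (adjusted p = 0.00954). ABCG2, the breast cancer resistance protein and the only subfamily G member on, had 35.6, 29.9 and 23.2 CPM in KO, against 25.7, 25.4 and 24.5 CPM in WT, with KO 3 the lowest of all 6 (edgeR adjusted p = 0.369).

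**Figure D3:**
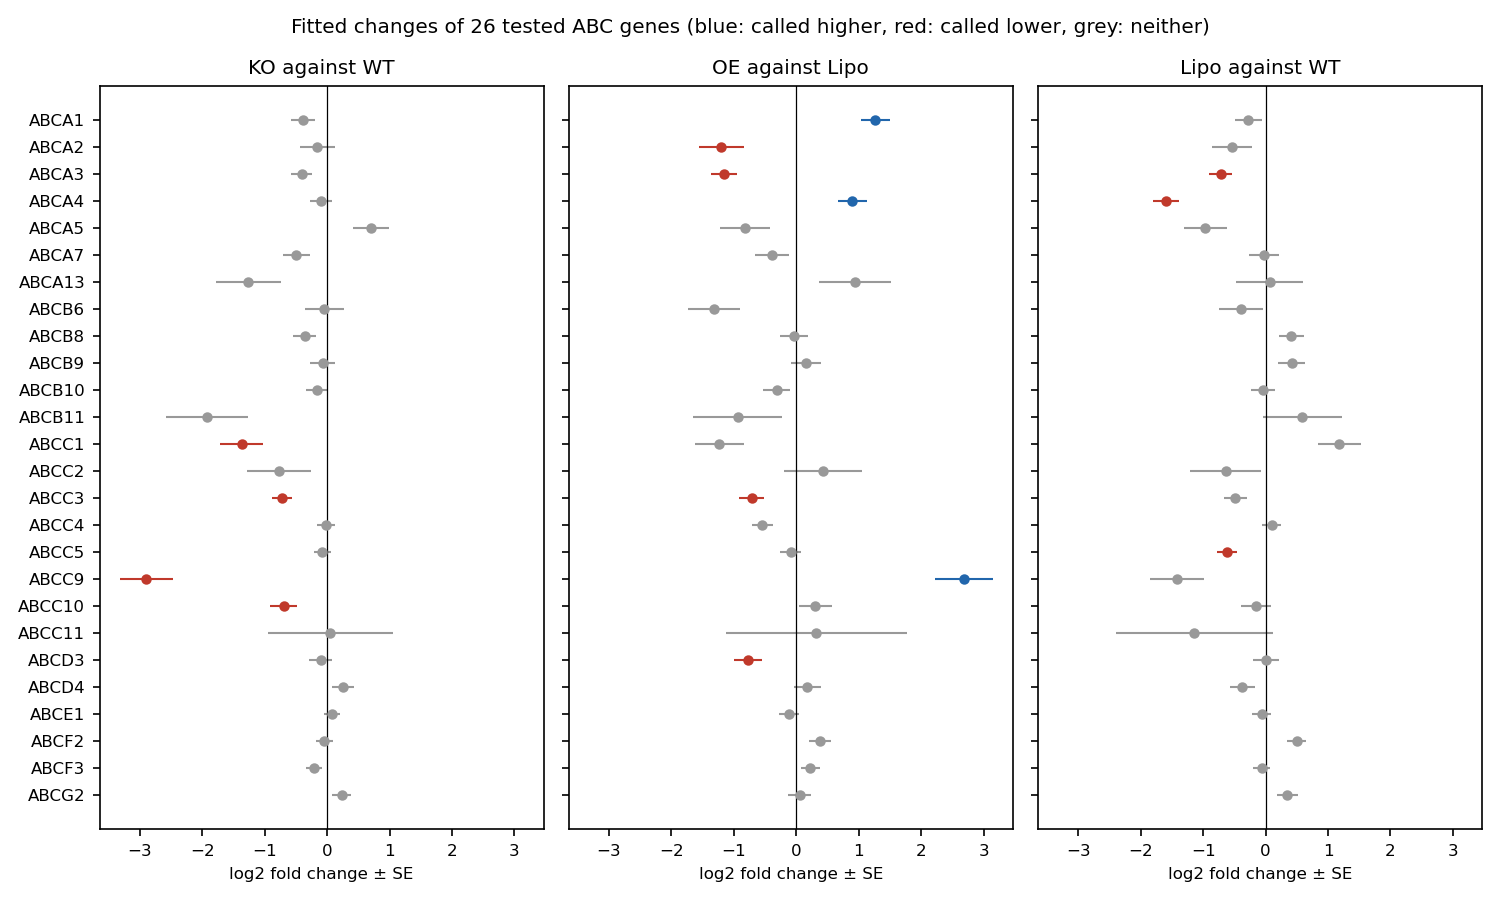
Fitted log2 fold change with its standard error for 26 of the 28 members tested, in KO against WT, OE against Lipo and Lipo against WT; blue points were called higher, red points lower and grey points neither. ABCC9 lay at -2.90 in KO against WT and at 2.68 in OE against Lipo.

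OE was compared with Lipo to ask which transporters differed in cells given TET1. The labels name no group with a plasmid lacking TET1. Differences due to added TET1 and to plasmid delivery therefore cannot be told apart, here or with WT as control. ABCC9, ABCA1 and ABCA4 rose and ABCA3, ABCC3, ABCD3 and ABCA2 fell, 7 calls or 25% of the 28 tested, beside 12.3% of all genes tested called in either direction, 6.79% higher and 5.53% lower. The median log2 fold change of the members was -0.07, with 13 above 0 and 15 below, and that of all genes was -0.0071. Groups did not overlap for 21 of the 28, beside 65.6% of all genes, a share near the background with 2 libraries a group. Set against WT instead, OE had 11 members called, 3 higher and 8 lower, beside 25% of all genes called, 12.3% higher and 12.6% lower. Without Lipo 3 the members called in OE against Lipo numbered 2, and without OE 1 or Lipo 2 they numbered 3.

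ABCC9 had 11.4 and 11.3 CPM in OE, against 2.29 and 1.23 CPM in Lipo. The OE libraries lay above those of every other group, WT included. ABCC9 rose 6.40-fold (log2 fold change 2.68, SE 0.46, edgeR adjusted p = 0.00152) and was called in all 20 alternatives. Against WT its log2 fold change was 1.27, and against WT and Lipo together it was 1.68. Of the pore subunits that SUR proteins pair with, KCNJ11 had 1.71 CPM in OE and 1.46 CPM in Lipo on average, and 2.03 CPM in KO and 1.69 CPM in WT, and was called in no comparison. The other pore subunit listed, KCNJ8, was not called in KO against WT, OE against Lipo or Lipo against WT, and its level is not given here.

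ABCA1 (ENSG00000165029, chr9:104781002-104928237, minus strand) exports cholesterol and phospholipid to apolipoprotein A-I. It had 25.1 and 25.9 CPM in OE, against 11.3 and 9.94 CPM in Lipo. Both OE libraries lay above the other 8 libraries, since KO held 10.4, 11.95 and 7.10 CPM and WT 11.4, 14.4 and 12.7 CPM. ABCA1 rose 2.40-fold (log2 fold change 1.26, SE 0.23, edgeR adjusted p = 0.00245), and without Lipo 3 the log2 fold change was 1.17 and the adjusted p 0.0503. Its promoter window is printed above with its motif matches, and their part in this rise was not tested.

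ABCA3 (ENSG00000167972, chr16:2275881-2340746, minus strand), the surfactant lipid transporter, had 10.4 CPM in both OE libraries, against 24.0 and 22.3 CPM in Lipo. The OE libraries were the lowest of all 10, with 22.1 to 35.5 CPM in KO and 34.5 to 40.8 CPM in WT. ABCA3 fell 2.23-fold (log2 fold change -1.16, SE 0.21, edgeR adjusted p = 0.00210), a call kept in all 20 alternatives. With WT as control its log2 fold change was -1.87. In KO against WT, ABCA3 was not called (log2 fold change -0.41, edgeR adjusted p = 0.120). In edgeR it was called lower there with the replicate number as a block (adjusted p = 0.0391 in all 10 libraries, 0.0200 in KO and WT alone) and without KO 2 (0.0337).

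ABCC3 had 100 and 103 CPM in OE, against 177 and 156 CPM in Lipo. Neither OE library reached the lowest Lipo or KO library. ABCC3 fell 1.64-fold (log2 fold change -0.72, SE 0.20, edgeR adjusted p = 0.0303). The call was lost without any single OE or Lipo library, with adjusted p of 0.176 and 0.137 without OE 1 and OE 2 and of 0.186 and 0.0929 without Lipo 2 and Lipo 3.

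ABCD3 (ENSG00000117528, chr1:94418455-94518666, plus strand), the peroxisomal half-transporter PMP70, had 23.4 and 20.4 CPM in OE, against 37.5 and 37.4 CPM in Lipo. The OE values lay below Lipo and WT (34.6 to 40.9 CPM), and below KO, whose lowest library was at 24.3 CPM. Its log2 fold change was -0.78 (SE 0.22, edgeR adjusted p = 0.0347), and the call was lost without KO 2, WT 2 or any OE or Lipo library, with adjusted p up to 0.220 without OE 2. ABCA2 (ENSG00000107331, chr9:137007227-137028922, minus strand), a lipid transporter of late endosomes and lysosomes, had 8.04 and 10.8 CPM in OE, against 20.7 and 22.5 CPM in Lipo. OE was again lowest, although WT ran from 15.3 CPM in WT 1 to 41.0 CPM in WT 3. Its log2 fold change was -1.20 (SE 0.36, edgeR adjusted p = 0.0421), lost without KO 2 or any OE or Lipo library, with adjusted p up to 0.258 without OE 1.

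ABCA4 (ENSG00000198691, chr1:93992835-94121132, minus strand), the retinoid transporter of photoreceptors, had 28.1 and 27.3 CPM in OE, against 15.5 and 14.1 CPM in Lipo. Yet WT held 33.0, 46.9 and 54.5 CPM, above both OE libraries, and KO held 40.8, 34.6 and 50.2 CPM. The log2 fold change of OE against Lipo was 0.90 (SE 0.23, edgeR adjusted p = 0.0180). It turned to -0.70 with WT as control (adjusted p = 0.0230) and to -0.25 against WT and Lipo together (adjusted p = 0.755), and the call was lost without any single OE or Lipo library, with adjusted p from 0.0888 without OE 2 to 0.162 without Lipo 3.

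**Figure D4:**
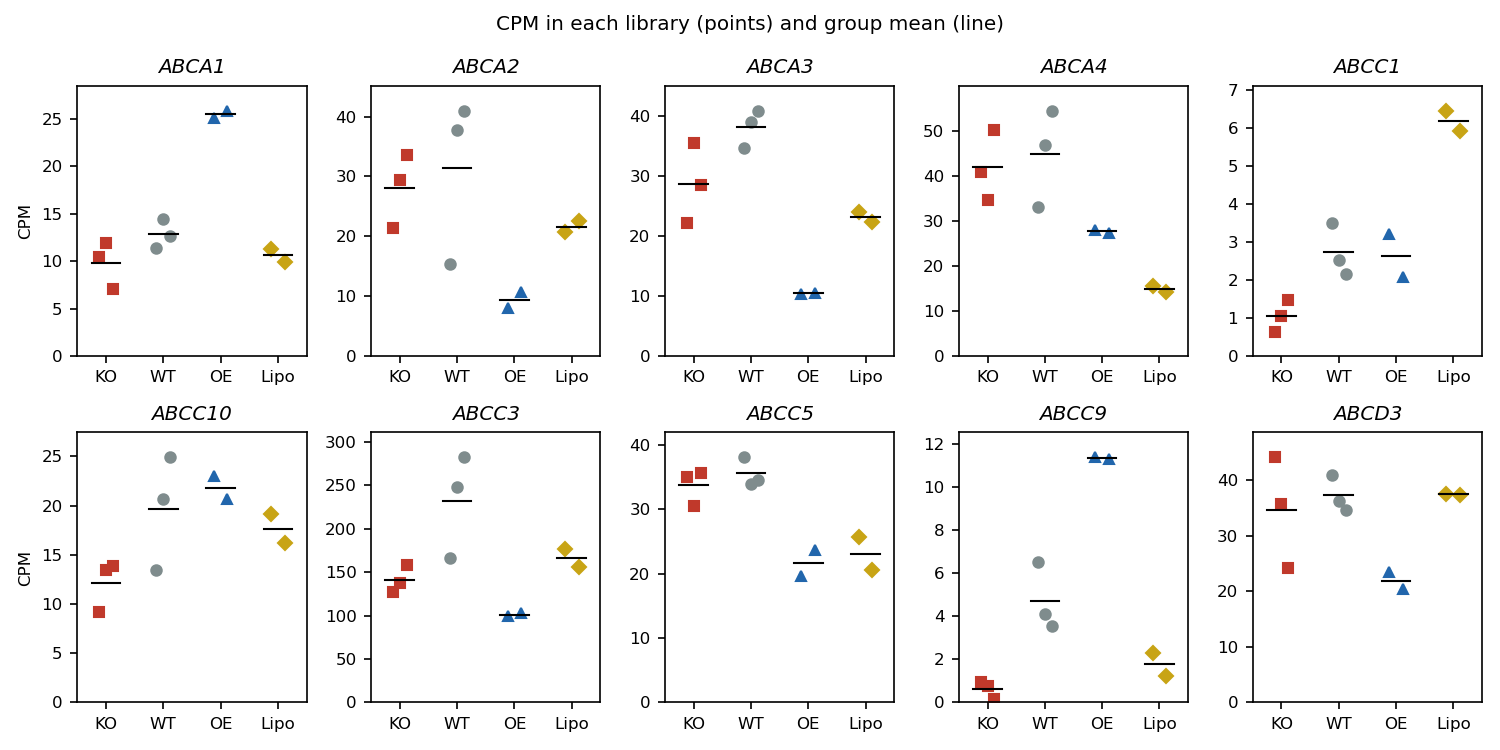
Level in CPM of the members called in KO against WT, OE against Lipo or Lipo against WT, for each KO, WT, OE and Lipo library (points), with the group mean as a line. ABCC9 had its highest values in OE, at 11.4 and 11.3 CPM, and its lowest in KO, at 0.173 to 0.926 CPM.

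A few members lay just past the threshold in OE. ABCB6, a mitochondrial and endosomal porphyrin transporter, had 0.789 and 1.93 CPM in OE, against 3.04 and 3.83 CPM in Lipo (log2 fold change -1.32, edgeR adjusted p = 0.0502). ABCC1 had 3.20 and 2.07 CPM in OE, against 6.45 and 5.93 CPM in Lipo (log2 fold change -1.23, edgeR adjusted p = 0.0517). ABCC4, an exporter of cyclic nucleotides and prostanoids, had 21.3 and 24.1 CPM in OE, against 35.1 and 31.2 CPM in Lipo (log2 fold change -0.55, edgeR adjusted p = 0.0516). In each of these the OE libraries lay below the Lipo libraries, and each was called in some alternatives. With WT as control, ABCC1 had a log2 fold change of -0.05 (edgeR adjusted p = 0.939) and the groups overlapped. ABCB6 stood at -1.72 there (edgeR adjusted p = 0.00522) and ABCC4 at -0.45 (edgeR adjusted p = 0.0512). ABCG2 had 34.3 and 32.1 CPM in OE, against 30.6 and 33.5 CPM in Lipo, which overlapped (edgeR adjusted p = 0.895).

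Whether KO and OE moved a member differently was tested directly, as KO minus WT less OE minus Lipo, which uses each library once. ABCC9, ABCA1 and ABCA4 were lower and ABCA5 higher, 14.3% of the members tested, beside 16.6% of all genes tested called, 7.16% higher and 9.47% lower. For ABCC9 the log2 difference was -5.58 (SE 0.63, edgeR adjusted p = 2.49e-05), from a fall in KO and a rise in OE, and for ABCA1 it was -1.65 (SE 0.30, edgeR adjusted p = 0.00166). Both calls held in all 17 alternatives. For ABCA4 it was -1.0 (SE 0.29, edgeR adjusted p = 0.0290), lost without KO 2, WT 2, WT 3 or any OE or Lipo library, with adjusted p up to 0.133 without Lipo 3. For ABCA5 it was 1.52 (SE 0.49, edgeR adjusted p = 0.0479), with neither effect called alone. The ABCA5 call was lost in 8 of 17 alternatives, without KO 1, KO 2, WT 2, WT 3, OE 1, Lipo 2 or Lipo 3 and without WT 1 and KO 1 together, with adjusted p up to 0.216 without OE 1, and its log2 difference was 2.52 without OE 2. For ABCC3, which fell in both, the log2 difference was -0.01 (SE 0.26, edgeR adjusted p = 0.994).

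**Figure D5:**
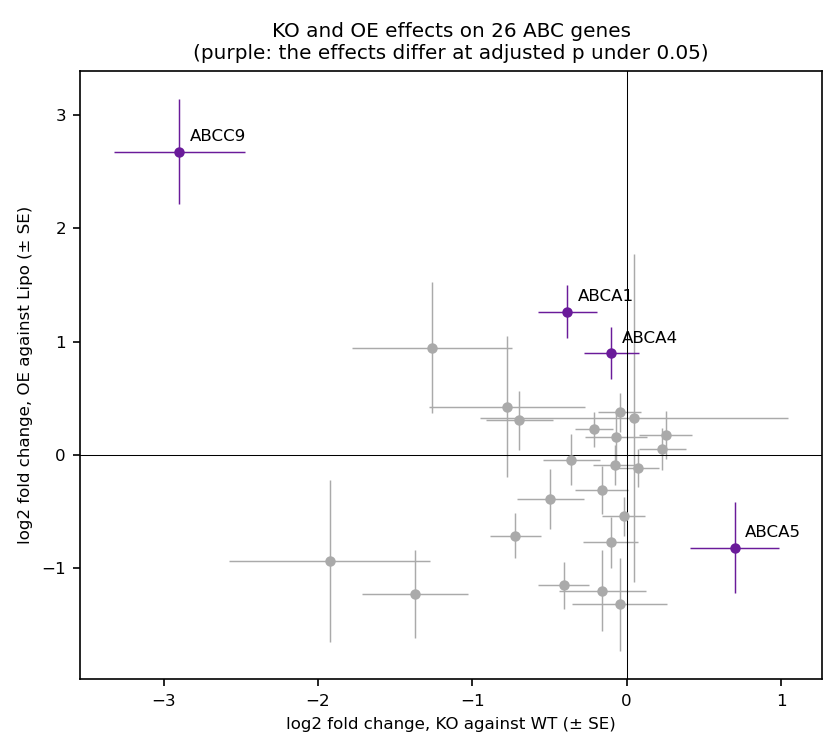
Fitted log2 fold change in KO against WT and in OE against Lipo for 26 of the 28 members tested, with standard errors; purple marks members whose effects differed at adjusted p under 0.05. The 2 contrasts share no library. ABCC9 lies apart at -2.90 in KO and 2.68 in OE, and ABCC3 at -0.72 in both.

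Lipo was compared with WT to see how far the controls differed. No member was called higher and ABCA4, ABCC5 and ABCA3 fell, 10.7% of the 28 tested, beside 3.7% of all genes tested called in either direction, 1.32% higher and 2.38% lower. The members had a median log2 fold change of -0.06, against -0.02 over all genes tested. Groups did not overlap for 14 of the 28, beside 43.6% of all genes. At an unadjusted p under 0.05 in edgeR, 2 members were higher and 6 lower, a threshold at which all genes were not counted. DESeq2 called 2 higher and 4 lower of 37 members it tested, beside 991 of 28074 genes called. No member was called without Lipo 3 and 1 without WT 2, WT 3, OE 1, OE 2 or Lipo 2, while 5 and 6 were called without KO 1 and KO 3. The 4 contrasts are not independent of each other, as Lipo serves as control of OE and is itself set against WT, the control of KO.

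ABCA4, with the levels given above, fell in Lipo (log2 fold change -1.59, SE 0.22, edgeR adjusted p = 0.00121), and its adjusted p was 0.0569 without Lipo 3. ABCC5 (ENSG00000114770, chr3:183919934-184018015, minus strand), a cyclic nucleotide exporter, had 25.6 and 20.6 CPM in Lipo, against 38.1, 34.02 and 34.6 CPM in WT. The groups did not overlap. In OE it had 19.7 and 23.6 CPM, overlapping Lipo, and in KO 35.0, 30.6 and 35.7 CPM, overlapping WT. Its log2 fold change in Lipo was -0.62 (SE 0.16, edgeR adjusted p = 0.0453), lost in 8 of 18 alternatives, without KO 2, WT 1, WT 2, WT 3 or any OE or Lipo library, with adjusted p up to 0.480 without Lipo 3. ABCA3 had a log2 fold change of -0.72 in Lipo (SE 0.19, edgeR adjusted p = 0.0468), lost in 7 of 18, among them the fits without WT 2, WT 3 or any OE or Lipo library, with adjusted p up to 0.391 without Lipo 3. ABCC9 and ABCC1, not called here, had log2 fold changes of -1.41 (edgeR adjusted p = 0.0900) and 1.18 (edgeR adjusted p = 0.0735).

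Other members on, ABCA7, ABCA13, ABCB8, ABCB9, ABCB10, ABCC2, ABCD4, ABCE1, ABCF2, ABCF3 and ABCG2, were called neither in KO or OE against their controls nor in Lipo against WT by the main test. ABCA7, a phospholipid transporter that also affects phagocytosis, had 25.2, 31.8 and 43.6 CPM in KO, against 31.6, 52.7 and 57.5 CPM in WT, where KO 3 lay above WT 1 (log2 fold change -0.50, edgeR adjusted p = 0.156). It was called lower in KO without a filter (adjusted p = 0.0212), with the replicate number as a block (0.0286 in all 10 libraries, 0.00621 in KO and WT alone), without WT 1 (0.0170) and without WT 1 and KO 1 together (0.0194). It had 36.1 and 34.5 CPM in OE, against 49.9 and 42.5 CPM in Lipo (edgeR adjusted p = 0.384). Both OE values lay below both Lipo values. ABCF2 had 71.5 and 74.2 CPM in OE, against 56.2 and 56.1 CPM in Lipo, with both OE libraries the highest of all 10 (log2 fold change 0.38, edgeR adjusted p = 0.177), and it was called higher in OE in 4 alternatives, among them WT as control (adjusted p = 9.68e-04). ABCB8, of the mitochondrial inner membrane, had 17.4, 24.7 and 30.7 CPM in KO, against 25.9, 32.6 and 35.0 CPM in WT, and the groups overlapped (edgeR adjusted p = 0.235, and 0.0426 with the replicate number as a block in KO and WT alone).

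Genes that work with these transporters were counted in lists by role, each listed with its median, beside the background shares above. Of 15 tested genes of cholesterol efflux and sterol sensing, the setting of ABCA1, none rose and 3 fell in KO (RXRA, NPC1 and SOAT1; median log2 fold change 0.13) and none rose and 1 fell in OE (median 0.01). RXRA, the partner of the liver X receptors, had 29.5 ± 5.01 CPM in KO and 43.7 ± 6.61 CPM in WT (SD, n = 3 each; log2 fold change -0.57, edgeR adjusted p = 0.0243), a call lost without KO 1, WT 2 or WT 3 (adjusted p up to 0.110). The calls of NPC1 and SOAT1 were lost in 7 and 10 of 20 alternatives, among them the fits without WT 2 and without any OE or Lipo library. In OE the gene that fell was NPC2, which carries cholesterol out of lysosomes, with 98.6 ± 4.34 CPM in OE and 175 ± 7.39 CPM in Lipo (SD, n = 2 each; log2 fold change -0.83, edgeR adjusted p = 0.00360, and 0.0611 without OE 1). In Lipo against WT, 1 rose and 1 fell (median 0.30).

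Of 13 tested lamellar body and surfactant genes, the setting of ABCA3, none rose and 2 fell in KO (median log2 fold change 0.05). SFTPB, a surfactant protein, had 49.5 ± 9.47 CPM in KO and 195 ± 20.4 CPM in WT (SD, n = 3 each; log2 fold change -1.97, edgeR adjusted p = 3.79e-07), and the phosphate carrier SLC34A2 also fell (log2 fold change -1.5, edgeR adjusted p = 5.93e-06). In OE 1 rose and 3 fell (median -0.22). SFTPB fell with ABCA3 there, at 29.7 ± 0.586 CPM in OE and 75.9 ± 1.69 CPM in Lipo (SD, n = 2 each; log2 fold change -1.35, edgeR adjusted p = 1.27e-04), while LAMP3, a lysosomal membrane protein of lamellar bodies, rose to 224 ± 1.17 CPM in OE, against 3.62 ± 0.109 CPM in Lipo (log2 fold change 5.95, edgeR adjusted p = 1.70e-07). In Lipo against WT, 2 rose, FOXA2 and CTSH, and 3 fell, SFTPB, SFTPA2 and SFTPA1 (median -0.24). Over the alternatives the log2 fold change there ran from -1.43 to -1.27 for SFTPB and from -1.44 to -1.28 for SFTPA2. SFTPB and ABCA3 were thus both called lower between the controls too. With WT as the control of OE, SFTPB stood at a log2 fold change of -2.71 and LAMP3 at 5.25.

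Of 12 tested genes of a glutathione list, 4 rose and none fell in KO (median log2 fold change 0.19). GSTP1, MGST2 and MGST3 belong to glutathione transferase families, whose products several C members export, while NQO1 is a quinone reductase and does not conjugate glutathione. The calls of GSTP1 and MGST2 held in all 20 alternatives, and those of MGST3 and NQO1 were lost in 12 and 11 of them, among these the fits without KO 1, KO 3, WT 2, WT 3 or any OE or Lipo library. GSTP1 had 284 ± 81.8 CPM in KO and 156 ± 26.4 CPM in WT (SD, n = 3 each; log2 fold change 0.86, edgeR adjusted p = 0.00525). None rose and 2 fell in OE (median -0.26), of which GSTA4 had 2.32 ± 0.424 CPM in OE and 7.59 ± 0.0250 CPM in Lipo (SD, n = 2 each; log2 fold change -1.71, edgeR adjusted p = 3.90e-04). None was called in Lipo against WT (median 0.12). Of 9 tested nuclear receptors and NRF2 regulators of efflux pumps, none rose and 3 fell in KO, PPARG, VDR and HIF1A (median -0.22), and VDR rose and PPARA fell in OE (median -0.03), both calls being lost without any single OE or Lipo library. The KO calls held in all 20 alternatives. PPARG, a fatty acid receptor, had 38.7 ± 3.80 CPM in KO and 62.4 ± 1.10 CPM in WT (SD, n = 3 each; log2 fold change -0.69, edgeR adjusted p = 0.00134). None of these 9 was called in Lipo against WT.

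The organelle lists held few calls. Of 19 tested peroxisomal genes, the setting of ABCD3, 1 rose and none fell in KO (median log2 fold change 0.08) and none rose and 1 fell in OE (median -0.01). Of 18 heme and iron-sulphur genes, 2 rose and none fell in KO (median 0.21) and 1 rose and 2 fell in OE (median 0.00085). Of 15 ribosome recycling genes, the setting of ABCE1, 1 rose and 1 fell in KO (median -0.12) and 1 rose and none fell in OE (median -0.02). None of these 3 lists had a call in Lipo against WT. RACK1, a ribosome-bound scaffold, rose in KO (log2 fold change 0.56, edgeR adjusted p = 0.00384), and EIF2AK2, the double-stranded RNA kinase PKR, had 522 ± 6.26 CPM in OE and 152 ± 5.71 CPM in Lipo (SD, n = 2 each; log2 fold change 1.78, edgeR adjusted p = 1.08e-06). Of 5 tested potassium channel and bile acid partners, none rose and 1 fell in KO (median -0.09), 1 rose and 1 fell in OE (median 0.22) and none was called in Lipo against WT. SLCO3A1, an organic anion carrier, fell in KO and rose in OE. It had 7.89 ± 1.02 CPM in KO and 12.7 ± 2.72 CPM in WT (SD, n = 3 each; log2 fold change -0.68, edgeR adjusted p = 0.0233, up to 0.0880 without KO 2 and 0.0749 without WT 1), and 28.7 ± 1.01 CPM in OE and 9.66 ± 0.581 CPM in Lipo (SD, n = 2 each; log2 fold change 1.57, edgeR adjusted p = 2.63e-04). Among 3 tested ABC proteins and partners whose symbols fall outside the pattern, none was called in KO (median 0.90) or in Lipo against WT. CFTR, which sets that median, and TAP2 had only 164 and 79 reads over all libraries. TAP1 with 0 reads and TAPBP with 2 were not tested, and are not read as lacking expression. TAPBPL alone, a tapasin-like peptide editor of MHC class I, rose in OE (median of the list 0.44). It had 72.0 ± 0.914 CPM in OE, against 27.5 ± 0.626 CPM in Lipo (log2 fold change 1.39, edgeR adjusted p = 2.02e-05).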

How the data were processed

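RNA was measured in 10 libraries of H441 cells, and per the labels' protocols 4 groups were formed from titles and treatments. The authors deposited raw read counts per gene, whole numbers without normalization. HISAT2 2.1.0, FastQC, featureCounts, edgeR and GRCh38 are named in the submitters' processing notes; the annotation release and the strand setting are not given in the sources used here. A further 2 columns matched no sample and were not used.

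From these counts, filterByExpr left 15832 genes. After TMM scaling, edgeR's robust quasi-likelihood fit took in all 10 libraries, with 1 coefficient a group (edgeR 4.0.16, R 4.3.3; 6 residual degrees of freedom). CPM uses the TMM-scaled library size. Adjusted p-values are Benjamini-Hochberg over all genes tested. Gene positions and exon lengths are from GENCODE 29, and promoters are from RefSeq. Identifiers of 46 members were in GENCODE.

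The text names every ABC gene called, the highest 5 per length and those next to 1 CPM, except members not reported here, and of each list up to 4 called members by smallest p. The members and lists were chosen with earlier results of these data known. ABCA5, ABCA7, ABCB6, ABCB8, ABCC4, ABCG2 and KCNJ11 were also chosen after their values were seen.

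The alternatives comprised scaling by RLE or by library size only, DESeq2 1.42.0, no filter, 1 CPM in 3 libraries, the groups compared alone, other control libraries, the replicate number as a block, and leaving out each library. Same-numbered KO and WT libraries deviated together with r of 0.33, 0.058 and 0.18 over genes. Differently numbered ones had r from -0.24 to 0.092, and each KO library had its highest r with the same-numbered WT library. The labels do not say what a shared number means. The main fit therefore does not pair the libraries, and the block is given as an alternative.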

Additional observations from a re-analysis of the deposited data

How the results depend on the processing

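The number of members on was 27 under all alternatives tried. ABCC9 in KO and in OE, ABCA3 in OE, and ABCC9 and ABCA1 in the difference of effects kept their calls under every alternative. In KO against WT, 4 members were called, and 2 to 6 with each KO or WT library left out. The replicate block gave 7 in all 10 libraries and 9 in KO and WT alone. What a shared replicate number means is not given in the labels. In OE against Lipo, 7 were called, 2 to 10 with each library left out, 13 with the groups compared alone, 11 with WT as control and 11 without WT 1 and KO 1, chosen after seeing the data. In Lipo against WT, 3 were called, 0 to 6 with each library left out, 6 with DESeq2, 7 without a filter, 5 with the groups compared alone, 6 with the replicate block and 7 without WT 1 and KO 1. In the difference, 4 were called, 2 to 7 with each library left out and 8 without a filter. ABCA4 in OE reversed to -0.70 with WT and to -0.25 with WT and Lipo together as control, and FOXA2 (log2 fold change -1.31) to 0.49 with WT. The causes were not tested. Over all genes, KO had 1992 calls, 1216 with the groups compared alone, and 1125 and 1238 without WT 2 and WT 3. With the block KO had 2874 in all 10 libraries and 3368 in KO and WT alone, so calls rose over all genes too. OE had 1950, 5664 with the groups compared alone, 3953 with WT as control, 3477 without WT 1 and KO 1, and 673 to 792 without any OE or Lipo library. Lipo had 586, 991 with DESeq2, 1100 without a filter, 1157 without WT 1 and KO 1, and 34 to 977 with each library left out. The difference had 2632, and 1373 to 1532 without any OE or Lipo library. Lipo also had 749 calls over all genes with the groups compared alone and 850 with the replicate block. The difference had 2978 without a filter. No scaling moved the median of all genes by 0.1 on the log2 scale.

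Without an OE or Lipo library that group has 1, assumed to vary like the others. Low members such as ABCC9, ABCC1, ABCB11 and ABCC2 rest on few reads, and only 2 libraries each stand behind OE and Lipo.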
